A study of Mus musculus with 32 samples.

Results

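Fatty acid oxidation in mouse adipose tissue macrophages was followed through 41 genes, chosen by name as the enzymes and carriers of the pathway, out of 24421 genes in the count tables. By step they were 4 acyl-CoA synthetases of fatty acid activation, 6 genes of the carnitine shuttle, 14 of mitochondrial beta-oxidation, 3 of electron transfer to the respiratory chain and 14 of the peroxisome. Bulk RNA was sequenced from macrophages sorted out of the epididymal fat pad of mice of strain C57BL/6J. The mice either lacked A20 in myeloid cells (KO) or were wild type (WT), and their feed over 12 weeks was high in fat (HFD) or standard (SD). Tnfaip3 encodes A20, which edits ubiquitin chains and thereby holds back NF-kB signals. The study asks whether its loss from myeloid cells alters obesity and the metabolism of fatty acids, and these genes are the machinery that this metabolism needs. There were 8 groups of 4 libraries: KO on HFD, WT on HFD, KO on SD and WT on SD in CD11c+ macrophages (low in CD206), and the same combinations in CD206+ macrophages. The labels name neither the promoter that drove the deletion nor the age of the mice, and do not say that the libraries within a group are from different animals. The p-values therefore measure only the spread between these libraries, which may be technical.

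Before a fatty acid can be burned it is joined to coenzyme A by an acyl-CoA synthetase. The carnitine shuttle carries long acyl chains into mitochondria, where beta-oxidation cuts them to acetyl-CoA and hands electrons to the electron transfer flavoprotein. Peroxisomes shorten very long and branched chains first, and in macrophages fatty acid oxidation is often described as a fuel supply of alternatively activated cells.

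Gene counts per library ran from 17619638 to 23832924. As a check of genotype, Tnfaip3 lay between 167 and 474 CPM (counts per 1000000 library counts) in the 16 KO libraries, against 486 to 1647 CPM in the 16 WT libraries. The sort was checked by Itgax, which encodes CD11c and lay at 146 to 379 CPM in CD11c+ libraries against 1.25 to 50.3 CPM in CD206+ libraries. Mrc1, which encodes CD206, lay at 401 to 722 CPM in CD11c+ libraries against 1290 to 2148 CPM in CD206+ libraries. All CPM below are scaled by library totals corrected with TMM factors and are given for replicates 1 to 4 or as mean ± SD with n = 4. Changes are log2 fold changes ± SE from an edgeR quasi-likelihood fit over all 32 libraries, with Benjamini-Hochberg adjustment over 13453 genes and a threshold of 0.05. The SE is not an output of edgeR. It was derived as the absolute log2 fold change divided by the square root of the F statistic. Differences between effects are given as the genotype effect on HFD minus that on SD, or as an effect in CD11c+ cells minus that in CD206+ cells. Of the 41 genes, 40 had enough counts to be tested. Cpt1b, the muscle form of carnitine palmitoyltransferase 1, was left out with 0 to 0.153 CPM in any library.

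Promoters are shown for 3 genes that are prominent in the results, and their patterns were not related to any change in expression. Hadha and Hadhb encode the alpha and beta subunits of the mitochondrial trifunctional protein, which carries out the last 3 reactions of long-chain beta-oxidation, and the genes lie head to head with start sites 273 bases apart. Acsl1, a long-chain acyl-CoA synthetase, was the gene of the 41 that was past the threshold and higher in KO in each genotype comparison, and it has 2 annotated starts. The sequences run from 250 bases before a start to 50 bases after it, 5′ to 3′ on the gene's strand, from RefSeq in build GRCm38.p6. Capitals mark the GC box (GGGCGG, or CCGCCC for the other strand) and the CCAAT box (CCAAT, or ATTGG for the other strand).
Hadha, chr5:30154931-30155230 (minus strand): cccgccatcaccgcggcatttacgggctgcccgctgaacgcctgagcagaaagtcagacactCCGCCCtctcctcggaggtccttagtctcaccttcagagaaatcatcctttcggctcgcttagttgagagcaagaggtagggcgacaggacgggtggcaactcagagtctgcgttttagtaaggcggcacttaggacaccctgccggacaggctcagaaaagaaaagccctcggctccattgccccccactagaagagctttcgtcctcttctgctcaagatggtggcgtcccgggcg
Hadhb, chr5:30155003-30155302 (plus strand): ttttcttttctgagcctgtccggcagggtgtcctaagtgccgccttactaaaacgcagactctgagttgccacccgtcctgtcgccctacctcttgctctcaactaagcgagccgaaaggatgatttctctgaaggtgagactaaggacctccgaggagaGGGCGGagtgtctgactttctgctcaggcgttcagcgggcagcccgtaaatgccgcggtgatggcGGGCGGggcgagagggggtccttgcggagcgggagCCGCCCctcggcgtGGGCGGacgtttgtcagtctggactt
Acsl1, chr8:46470787-46471086 (plus strand): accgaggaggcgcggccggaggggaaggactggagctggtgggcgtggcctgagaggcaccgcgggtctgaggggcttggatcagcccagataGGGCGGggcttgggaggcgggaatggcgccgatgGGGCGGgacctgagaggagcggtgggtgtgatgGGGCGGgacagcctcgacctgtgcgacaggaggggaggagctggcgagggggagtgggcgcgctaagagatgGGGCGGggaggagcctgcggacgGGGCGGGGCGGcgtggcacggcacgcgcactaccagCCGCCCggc
Acsl1, chr8:46490716-46491015 (plus strand): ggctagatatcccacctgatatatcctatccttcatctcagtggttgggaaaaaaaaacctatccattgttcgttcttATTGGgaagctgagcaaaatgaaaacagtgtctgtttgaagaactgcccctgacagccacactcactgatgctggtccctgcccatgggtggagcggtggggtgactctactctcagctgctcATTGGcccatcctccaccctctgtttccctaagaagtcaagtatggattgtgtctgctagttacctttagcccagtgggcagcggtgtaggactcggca

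The windows of Hadha and Hadhb overlap, since each reaches into the gap between the start sites. The GC box stood 1 time in the Hadha window and 4 times in the Hadhb window. The first Acsl1 start held it 7 times, while the second held no GC box and 2 CCAAT boxes. RefSeq promoters were found for 34 of the 41 genes, in 36 windows, and 8 letter patterns were searched on both strands of each. The GC box was present in 26 of these 36 windows (72.2%), against 35.7% of the 32851 promoters in the whole table. CCAAT was present in 44.4% of the windows against 37.4% of all promoters, the ETS pattern CCGGAAG in 13.9% against 8.86%, and the NRF1 pattern, GCGCA followed by TGCGC, in 5.56% against 0.971%. The nuclear receptor core site AGGTCA, which is also part of the longer receptor patterns searched, was present in 16.7% against 16.3%. None of the windows held the direct repeat bound by PPAR and RXR, AGGTCA written again after 1 free base (0.0396% of all promoters), TNAAGGTCA, the pattern of estrogen-related receptors (1.28%), or the NF-kB pattern, GGGA, 1 free base and TTTCC (0.411%). These are letter matches in a short window and say nothing of binding. All promoters of the table were counted, whether or not their genes were expressed here.

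Per kilobase of exon, averaged over the 32 libraries, the highest levels were those of Etfb at 99.4 CPM per kilobase, Acaa2 at 86.0, Scp2 at 72.6, Etfa at 64.1 and Acadl at 58.1. Exon length was the union over all annotated transcripts of a gene, so the ranking depends on it. Before division Hadhb averaged 200 CPM over 6595 exon bases, and Etfb 116 CPM over 1164. The lowest after Cpt1b were Acaa1b at 0.139, Pex11a at 0.626 and Acad10 at 0.682 CPM per kilobase. The genes also differed in how far their group means were spread. The highest group mean of Scp2, a peroxisomal thiolase and sterol carrier, was 1.09 times its lowest, and the same ratio was 1.15 for both Etfdh, the flavoprotein's dehydrogenase, and Acadvl, the very long-chain acyl-CoA dehydrogenase. For Crat, carnitine acetyltransferase, it was 3.09 and for Acsl1 it was 3.42. Cpt1a, the rate-limiting carnitine palmitoyltransferase of the outer mitochondrial membrane, Acadvl, Etfdh and Scp2 were past the threshold in none of the 12 comparisons between 2 groups in the unblocked fit. Some counts may be shared or uncertain. Acaa1a and Acaa1b are 96% identical over 1450 aligned bases. Etfb shares 53.0% of its exon bases with the predicted gene Gm45233, which has no entry of its own in the count tables. Acadvl shares 42.9% with Dvl2 on the opposite strand, and the labels do not say whether counting used the strand. Smaller overlaps with counted genes on the opposite strand include those of Acot8 with Snx21 (12.3%), Acsl5 with Zdhhc6 (8.31%) and Acaa1a with Myd88 (6.57%).

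**Figure D1:**
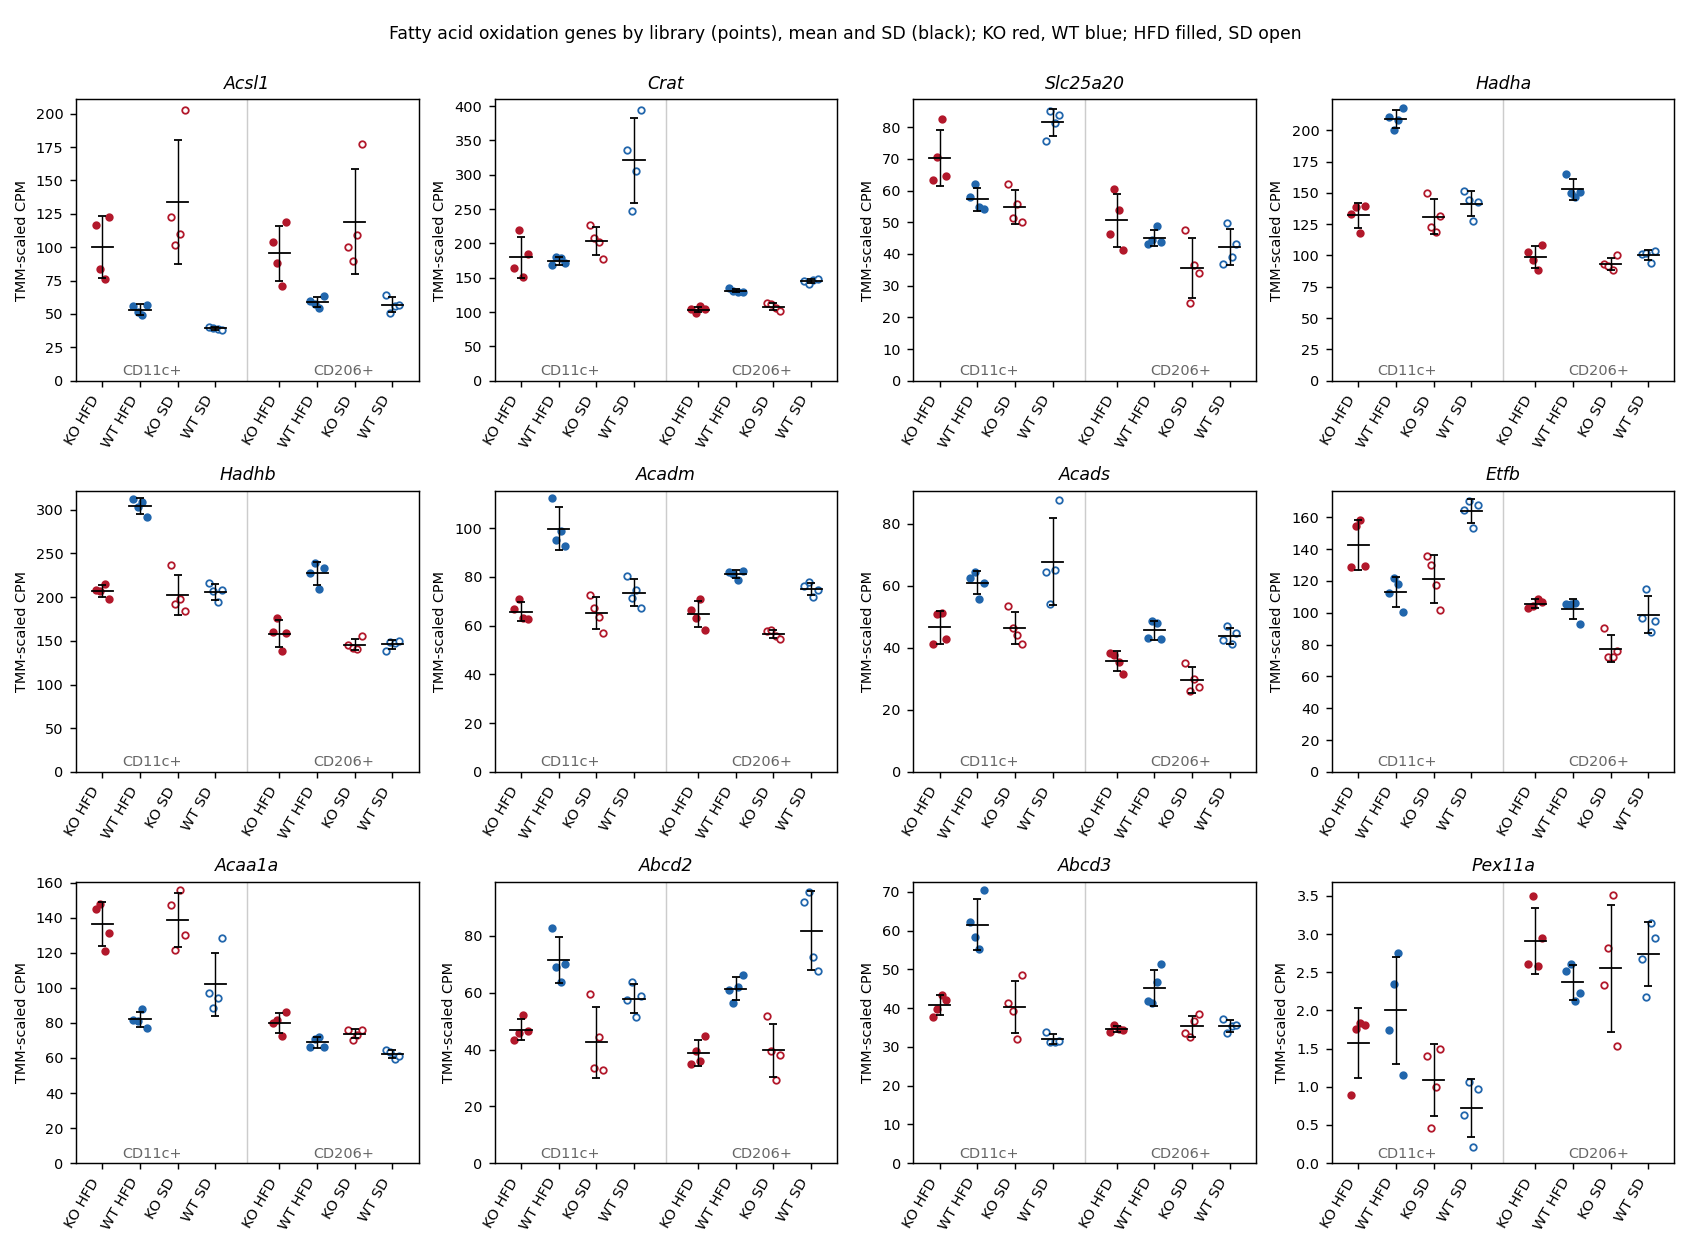
Level of 12 of the 41 genes in each of the 32 libraries (points, CPM), with the mean and SD of each group of 4 (bars); KO in red, WT in blue, HFD filled, SD open, CD11c+ groups left of CD206+ groups. Hadha and Hadhb stand high in the WT HFD groups of both populations, Acsl1 is higher in every KO group than in its WT group, and Crat is highest in CD11c+ cells of WT mice on SD; Pex11a was added to the panels after its values were seen.

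KO cells differed from WT cells in single genes of the pathway in both directions, and in each of the 4 genotype comparisons the share of the 40 tested genes past the threshold was near that of all genes. In CD11c+ cells on HFD, 6 genes were higher and 12 lower in KO, 45% of the 40 against 38% of all genes tested. By direction, 15% of the 40 against 18.6% of all genes were higher and 30% against 19.4% lower. The same cells on SD gave 6 higher and 6 lower, 30% against 26.8%, or 15% against 13.2% higher and 15% against 13.6% lower. CD206+ cells gave 2 higher and 9 lower on HFD, 27.5% against 21.8%, or 5% against 10.5% higher and 22.5% against 11.3% lower. On SD they gave 2 higher and 8 lower, 25% against 24.5%, or 5% against 11.8% higher and 20% against 12.7% lower. The lower genes thus outnumbered the higher ones in 3 of the 4 comparisons. In CD11c+ cells on HFD the median log2 fold change of the 40 genes was -0.04, beside -0.02 over all genes. The total shares are near the background and say nothing particular about the module. Since these are bulk libraries, fewer cells of a type and less RNA per cell cannot be told apart.

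Many of these genes differed between the diets in WT CD11c+ cells, few did in WT CD206+ cells, and none passed the threshold in KO cells. Between HFD and SD, WT CD11c+ cells had 15 genes higher and 8 lower, 57.5% against 46.3% of all genes, or 37.5% against 23.8% higher and 20% against 22.6% lower. WT CD206+ cells had 5 higher and 1 lower, 15% against 27.7%, or 12.5% against 14.2% higher and 2.5% against 13.5% lower. Without replicate 4 of WT CD11c+ on SD, the count lower in CD11c+ cells was 5. Without replicate 4 of WT CD206+ on HFD, the count higher in CD206+ cells was 3. In KO cells no gene of the 40 passed in edgeR in either population, where 1 of all genes (0.00743%) passed in CD11c+ cells and 0% in CD206+ cells. At an unadjusted p under 0.05, 5 of the 40 were higher and 2 lower on HFD in KO CD11c+ cells, and 7 higher and 2 lower in KO CD206+ cells. At that level the KO diet comparisons held 1221 of all 13453 genes tested in CD11c+ cells and 831 of 13453 in CD206+ cells. The share was thus larger among the 40 than among all genes in both populations, without adjustment. The 40 genes were chosen with earlier results of these data known, so this says nothing particular about the module. DESeq2 called 36 of all genes higher and 10 lower on HFD in KO CD11c+ cells, and 10 higher and 8 lower in KO CD206+ cells. Among the 40 genes it called 0 in CD11c+ cells and 2 in CD206+ cells, Acaa2 and Etfb, both higher on HFD. In KO CD206+ cells Etfb averaged 106 ± 2.74 CPM on HFD, against 77.5 ± 8.71 CPM on SD (0.45 ± 0.10, edgeR adjusted p = 0.147), and Acaa2 113 ± 8.75 CPM on HFD, against 78.7 ± 18.5 CPM on SD (0.52 ± 0.12, adjusted p = 0.219). In KO CD11c+ cells Slc25a20 averaged 70.2 ± 8.74 CPM on HFD, against 54.7 ± 5.41 CPM on SD (0.36 ± 0.13, adjusted p = 0.391). The difference between the diet effects in KO and WT cells was past the threshold for 13 of the 40 genes in CD11c+ cells, 32.5% against 28.8% of all genes, with 6 above 0 (15% against 13.9%) and 7 below (17.5% against 15%). In CD206+ cells it was past the threshold for 3, 7.5% against 11.9%, with 0 above 0 (0% against 5.23%) and 3 below (7.5% against 6.63%).

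Between the populations, more of the genes were higher than lower in CD11c+ cells, least so in WT mice on SD. Unless stated, the counts that follow are from the fit without the replicate number as a block, which does not use the pairing of the populations. In KO cells on HFD 15 were higher and 3 lower in CD11c+ than in CD206+ cells, 45% against 45.8% of all genes. KO cells on SD had 16 higher and 5 lower, 52.5% against 51.7%, WT cells on HFD 11 higher and 0 lower, 27.5% against 20.4%, and WT cells on SD 15 higher and 13 lower, 70% against 63.7%. All genes were split more evenly. KO cells on HFD had 37.5% of the 40 against 23.3% of all genes higher, and 7.5% against 22.5% lower, while KO cells on SD had 40% against 25.6% higher and 12.5% against 26.1% lower. WT cells on HFD had 27.5% against 11.7% higher and 0% against 8.7% lower, and WT cells on SD 37.5% against 30.2% higher and 32.5% against 33.5% lower. The count of 0 lower in WT cells on HFD was 2 at an unadjusted p under 0.05 and 0 in DESeq2, and it was 1, Ehhadh, with the replicate number as a block. The diet effects of the populations differed past the threshold for 19 of the 40 genes in WT mice, 47.5% against 32.4% of all genes, with 12 above 0 (30% against 16.4%) and 7 below (17.5% against 16%), and for none in KO mice, against 0% of all genes. There 406 of all genes and none of the 40 had an unadjusted p under 0.05, and DESeq2 called 0. The genotype effects of the populations differed for 1 gene on HFD, 2.5% against 4.36% of all genes, with 1 above 0 (2.5% against 2.16%) and 0 below (0% against 2.2%). On SD they differed for 3, 7.5% against 6.57%, with 2 above 0 (5% against 4.1%) and 1 below (2.5% against 2.48%). The 3 on SD were Acsl5, Cpt2 and Hadh, of which Cpt2 and Hadh were lost with median-of-ratios size factors and in most fits that left out 1 library. With the block the SD difference was also past the threshold for Acsl1, Abcd2 (adjusted p = 0.0264) and Phyh (adjusted p = 0.0443).

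**Figure D2:**
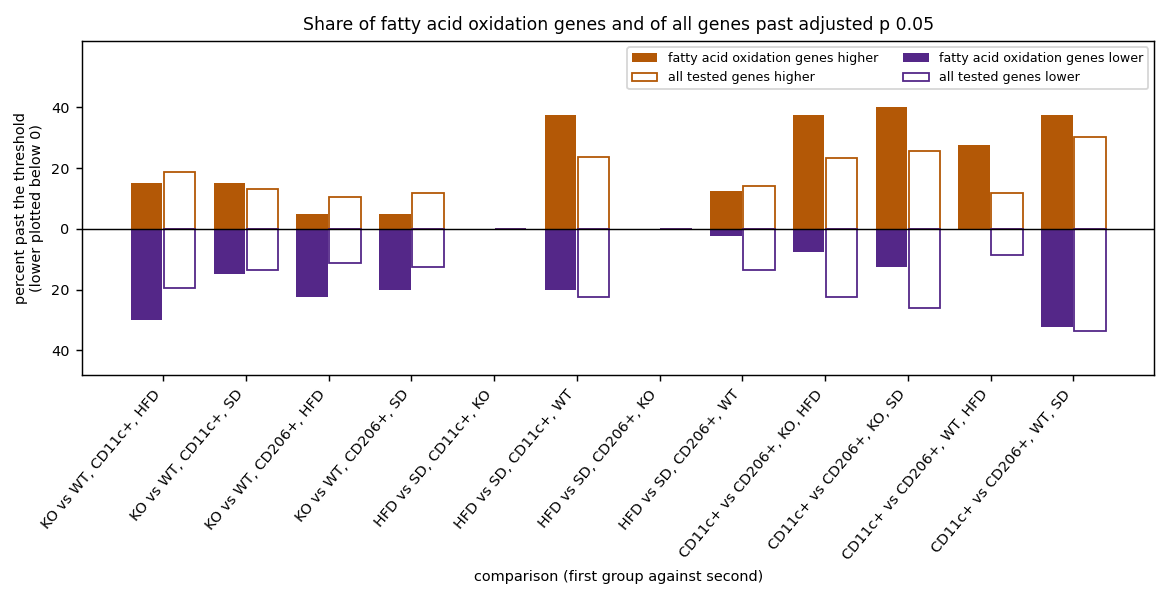
Percent of the 40 tested fatty acid oxidation genes and of all 13453 tested genes past the edgeR threshold, split into higher and lower, in the 12 comparisons between 2 groups. The WT diet comparison in CD11c+ cells and the population comparisons show the most genes higher, and the KO diet comparisons show none of the 40 genes in either direction.

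**Figure D3:**
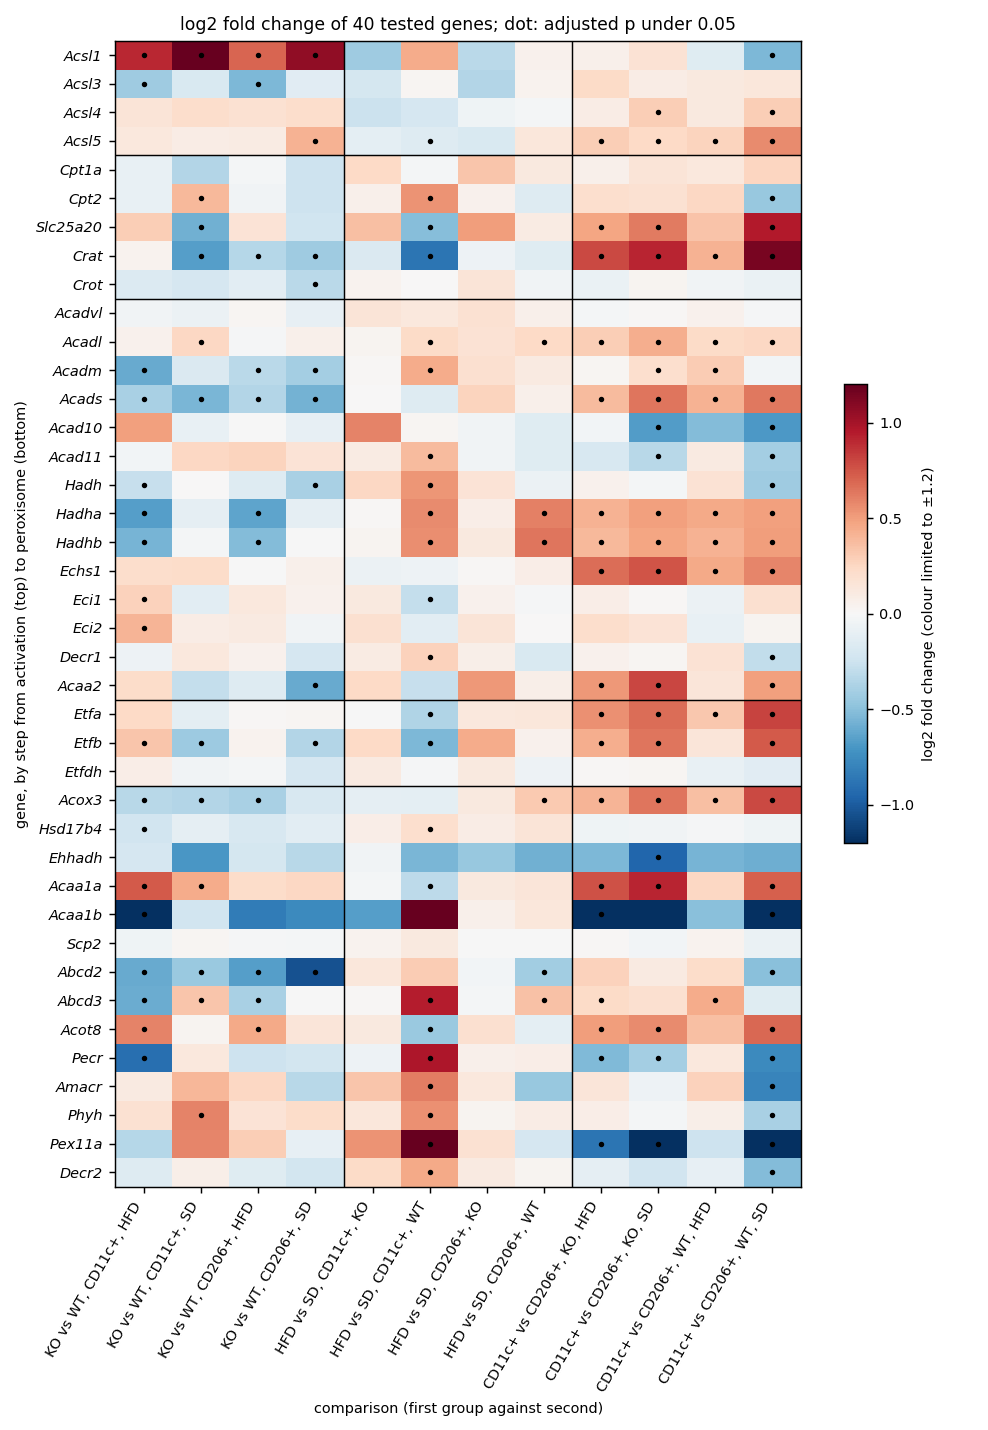
Log2 fold change of each of the 40 tested genes (lines of the map, grouped by step) in the 12 comparisons (across), with the colour scale limited at 1.2 in both directions and a dot where the adjusted p was under 0.05. Acsl1 is positive in all 4 genotype comparisons, Acads and Abcd2 are negative in all 4, and the lines of Hadha and Hadhb look alike across the map.

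Although Acsl5 had the most counts of the activation genes, their genotype effects were largest for Acsl1, the main long-chain acyl-CoA synthetase of fat and heart. In CD11c+ cells on HFD it lay at 117, 83.7, 76.4 and 123 CPM in KO, against 56.2, 51.2, 48.9 and 57 CPM in WT, and on SD at 123, 102, 109.9 and 202 CPM in KO, against 40.5, 39.7, 38.6 and 37.9 CPM in WT. In CD206+ cells it lay at 104, 88.2, 71 and 119 CPM in KO on HFD, against 60.02, 57.7, 54.3 and 63.4 CPM in WT, and on SD at 100.4, 90.03, 109 and 177 CPM in KO, against 64.4, 50.8, 55.8 and 56.7 CPM in WT. Every KO library was above every WT library of its comparison, and the KO libraries were spread more widely. The log2 fold changes were 0.91 ± 0.19 in CD11c+ cells on HFD (adjusted p = 0.000408), 1.78 ± 0.20 on SD (adjusted p = 4.55e-08), 0.70 ± 0.19 in CD206+ cells on HFD (adjusted p = 0.00817) and 1.07 ± 0.19 on SD (adjusted p = 0.000127). The genotype effect in CD11c+ cells was smaller on HFD than on SD, with a difference of -0.87 on the log2 scale (adjusted p = 0.0161), and without replicate 4 of KO CD11c+ on SD, the highest library, that adjusted p was 0.094. The difference of the SD genotype effects between populations had an adjusted p = 0.12, and an adjusted p = 7.54e-05 with the replicate number as a block. Markers of adipocytes, which express Acsl1 strongly, were detected too. The 10 adipocyte-defining markers summed to 27.5 to 88.5 CPM in KO and 10.5 to 35.2 CPM in WT CD11c+ cells on HFD, where 4 were higher and 1 lower in KO, and to 95.7 to 232 CPM in KO and 19.4 to 53.3 CPM in WT CD206+ cells on HFD, where 7 were higher. On SD they summed to 27.4 to 45.2 CPM in KO and 21.8 to 36.8 CPM in WT CD11c+ cells (1 higher), and to 139 to 239 CPM in KO and 192 to 248 CPM in WT CD206+ cells (1 higher, 3 lower). On HFD a longer list of 18 adipocyte markers summed to 302 to 450 CPM in KO and 466 to 638 CPM in WT CD11c+ cells. Its CD206+ sums were 505 to 706 CPM in KO and 392 to 713 CPM in WT. On SD it summed to 297 to 352 CPM in KO and 352 to 539 CPM in WT CD11c+ cells. In CD206+ cells on SD the sums were 494 to 766 CPM in KO and 745 to 1104 CPM in WT. The lists thus differed in direction in CD11c+ cells on HFD. The part of adipocyte RNA in the Acsl1 result was not tested.

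The other synthetases differed in fewer comparisons. Acsl5, which feeds both oxidation and lipid synthesis, lay at 167, 183, 182 and 187 CPM in KO CD206+ cells on SD, against 130.4, 128, 138 and 142 CPM in WT. These groups did not overlap, with a log2 fold change of 0.42 ± 0.06 (adjusted p = 1.07e-05). On HFD Acsl5 averaged 195 ± 11.4 CPM in KO, against 179 ± 5.67 CPM in WT CD11c+ cells (adjusted p = 0.119), and 159 ± 11 CPM in KO and 148 ± 10.001 CPM in WT CD206+ cells (adjusted p = 0.295). Acsl3, a synthetase of lipid droplets and the endoplasmic reticulum, was lower in KO on HFD, at 20.6 ± 3.5 CPM against 27.6 ± 4.97 CPM in WT CD11c+ cells (adjusted p = 0.0469) and 17.6 ± 1.19 CPM against 25.4 ± 4.74 CPM in WT CD206+ cells (adjusted p = 0.0207). These calls were fragile, holding in 2 of 8 and 6 of 8 fits that left out 1 library, with largest adjusted p of 0.25 and 0.139, and the CD206+ call was lost without KO replicate 3 or without WT replicate 1. Acsl4, which prefers arachidonic acid, was past the threshold in no genotype or diet comparison and averaged between 79.5 and 115 CPM over the groups. Summed over the 4 synthetases, CD11c+ cells held 411 ± 32 CPM in KO on HFD, against 346 ± 17 CPM in WT, and 484 ± 41.8 CPM in KO on SD, against 365 ± 28.6 CPM in WT.

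In the carnitine shuttle, Cpt1a had the most counts and was not past the threshold. On SD its CD11c+ libraries lay at 339, 192, 302 and 295 CPM in KO, against 331, 316, 329 and 460.2 CPM in WT, with a log2 fold change of -0.35 ± 0.17 (adjusted p = 0.13). On HFD it averaged 333 ± 27.6 CPM in KO, against 354 ± 38.7 CPM in WT CD11c+ cells, and 319 ± 42.1 CPM in KO and 325 ± 22.1 CPM in WT CD206+ cells. The groups overlapped, so a difference was not detectable beyond the spread of the libraries. Cpt2, the inner membrane transferase that releases acyl-CoA in the matrix, was higher on HFD than on SD in WT CD11c+ cells, at 25.1, 23.3, 24 and 24.8 CPM on HFD against 13.9, 15.7, 14.4 and 23.2 CPM on SD (0.54 ± 0.14, adjusted p = 0.00153). The HFD libraries lay above all SD libraries.

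Crat, which exchanges acetyl groups between coenzyme A and carnitine, stood out for WT CD11c+ cells on SD. There it lay at 226, 208, 202 and 178 CPM in KO, against 336, 247, 306 and 395 CPM in WT (-0.66 ± 0.10, adjusted p = 1.18e-05). In the same cells on HFD it lay at 164, 219.8, 151 and 185 CPM in KO, against 168, 181, 179 and 172 CPM in WT (0.04 ± 0.10, adjusted p = 0.778). All KO libraries were below all WT libraries on SD, and the groups overlapped on HFD. The difference between these genotype effects was 0.70 ± 0.15 on the log2 scale (adjusted p = 0.000415). CD206+ cells held less Crat. They had 114, 111, 106 and 101 CPM in KO on SD, against 146, 141, 147 and 148 CPM in WT (-0.43 ± 0.10, adjusted p = 0.00256), and 104, 98.2, 108 and 104 CPM in KO on HFD, against 135, 131, 129 and 129.9 CPM in WT (-0.34 ± 0.10, adjusted p = 0.0161). The KO libraries lay below the WT libraries on both diets, and without replicate 1 of WT CD206+ on HFD the HFD adjusted p was 0.0563. Crat was lower on HFD than on SD in WT CD11c+ cells, with a log2 fold change of -0.88 ± 0.10 (adjusted p = 3.42e-08), while WT CD206+ cells averaged 131 ± 2.62 CPM on HFD and 145 ± 3.17 CPM on SD (adjusted p = 0.296). The diet effects in the WT populations differed by -0.73 ± 0.15 (adjusted p = 0.000298).

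Slc25a20, the carnitine-acylcarnitine translocase of the inner membrane, was also lower in KO CD11c+ cells on SD. It lay at 62, 51.2, 55.6 and 50.1 CPM in KO, against 75.6, 85.1, 81.4 and 83.7 CPM in WT, with no overlap (-0.57 ± 0.13, adjusted p = 0.00173). On HFD it lay at 63.5, 70.6, 82.5 and 64.4 CPM in KO, against 58, 62, 54.9 and 54 CPM in WT, with a log2 fold change of 0.30 ± 0.13 (adjusted p = 0.0829). The HFD libraries of WT were all below the SD libraries of WT (-0.51 ± 0.13, adjusted p = 0.00232). Crot, the peroxisomal carnitine octanoyltransferase, averaged 50.2 ± 4.66 CPM in KO CD206+ cells on SD and 62.9 ± 6.55 CPM in WT (adjusted p = 0.023), a call that held in 2 of 8 fits leaving out 1 library (largest adjusted p = 0.172). Summed CPM of the shuttle were 613 ± 76.9 in KO and 838 ± 125 in WT CD11c+ cells on SD, and 659 ± 38 in KO and 670.2 ± 35.4 in WT on HFD. Markers of other immune cells also differed between these libraries. The sum over 5 T cell markers was 57.2 to 72.6 CPM in KO and 143 to 214 CPM in WT on SD, and 39.6 to 88.4 CPM in KO and 8.98 to 15.3 CPM in WT on HFD. In KO against WT, 1 of the 5 was higher and 1 lower on SD, and 5 were higher on HFD. The 6 dendritic cell markers summed to 87.6 to 220.3 CPM in KO and 263 to 533 CPM in WT on SD, with 2 higher and 1 lower in KO. On HFD they summed to 67.5 to 218 CPM in KO, against 25.7 to 91.9 CPM in WT, with all 6 higher in KO. The part of these cells in the Crat, Slc25a20 and Etfb results was not tested.

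**Figure D4:**
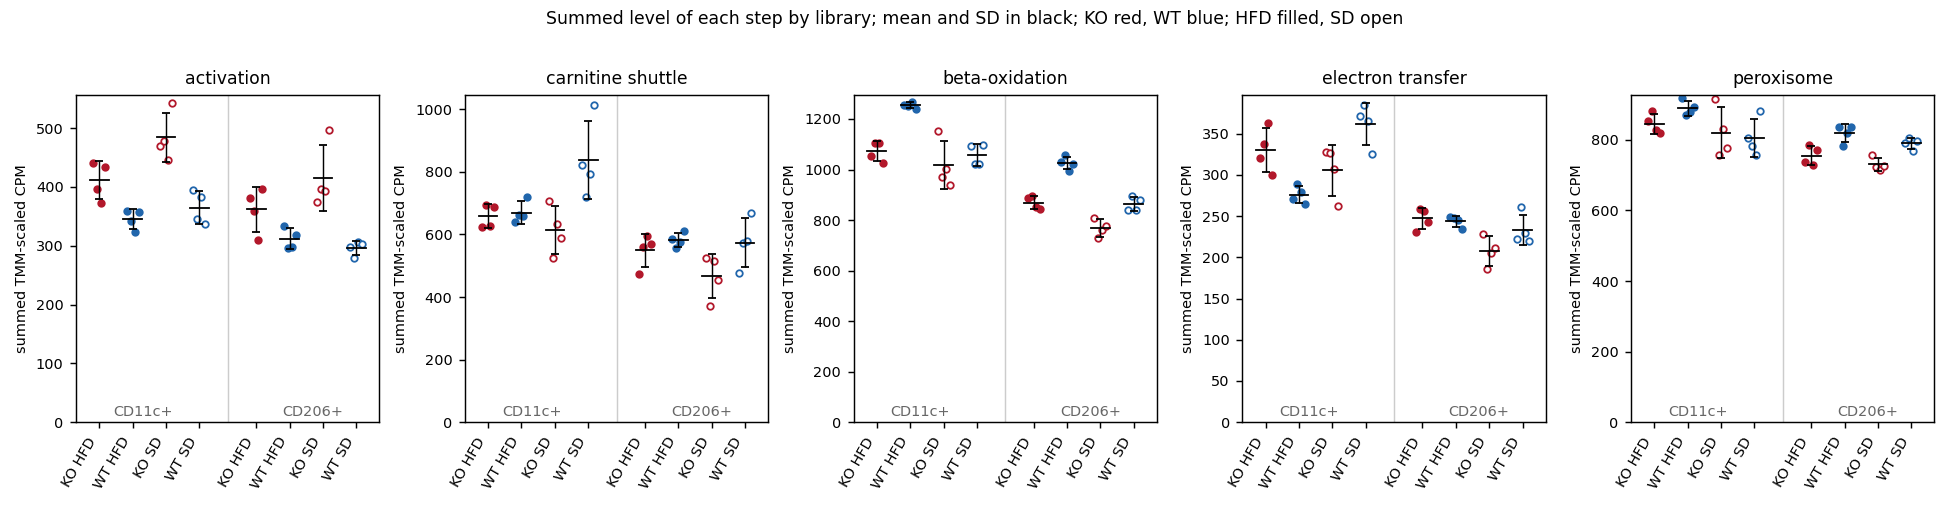
Summed CPM of the tested and untested genes of each step in each library (points), with group mean and SD (bars); KO in red, WT in blue, HFD filled, SD open. Mean activation sums are higher in KO than in WT of the same diet and population, within each population the beta-oxidation sums of KO HFD libraries are below those of WT HFD libraries, and the mean electron transfer sum is highest in WT CD11c+ cells on SD.

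Mitochondrial beta-oxidation was led by the trifunctional protein pair. Hadha, its alpha subunit with the hydratase and long-chain hydroxyacyl-CoA dehydrogenase activities, lay at 133, 138, 118 and 139 CPM in KO CD11c+ cells on HFD, against 211, 200.4, 208 and 218 CPM in WT. On SD it lay at 150.2, 123, 119 and 132 CPM in KO, against 151, 144, 127 and 143 CPM in WT. The 4 WT HFD libraries stood above all others of CD11c+ cells, and the remaining groups overlapped. Hadha was lower in KO on HFD, with a log2 fold change of -0.66 ± 0.08 (adjusted p = 6.17e-08), against -0.11 ± 0.08 on SD (adjusted p = 0.315), and was higher on HFD than on SD in WT by 0.57 ± 0.08 (adjusted p = 4.46e-07). In KO the diet comparison gave 0.01 ± 0.08 (adjusted p = 0.982). The difference between the genotype effects on the diets was -0.55 ± 0.11 (adjusted p = 0.000243).

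CD206+ cells gave the same picture for Hadha. It lay at 103, 96.3, 88.3 and 108 CPM in KO on HFD, against 165, 149.9, 146 and 151 CPM in WT (-0.63 ± 0.08, adjusted p = 3.16e-07), and at 92.9, 91.8, 88.4 and 100.1 CPM in KO on SD, against 101, 102, 94.2 and 104 CPM in WT (-0.10 ± 0.08, adjusted p = 0.356). The WT HFD libraries were again above every other library of the population. The WT diet effect was 0.61 ± 0.08 (adjusted p = 6.81e-07), and the genotype effects on the diets differed by -0.52 ± 0.11 (adjusted p = 0.00165).

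Hadhb, the beta subunit with the thiolase activity, had the same order of groups in CD11c+ cells on HFD, with 208, 207, 215 and 198 CPM in KO, against 312, 304, 309 and 291 CPM in WT (-0.55 ± 0.07, adjusted p = 6.16e-07). In CD206+ cells on HFD it lay at 160.1, 176, 138 and 159 CPM in KO, against 228, 239, 209 and 234 CPM in WT (-0.52 ± 0.07, adjusted p = 3.23e-06). No KO library reached a WT library in either population. On SD it averaged 202 ± 23.3 CPM in KO, against 206 ± 9.09 CPM in WT CD11c+ cells (adjusted p = 0.825), and 146 ± 6.64 CPM in KO and 146 ± 5.28 CPM in WT CD206+ cells (adjusted p = 0.98). The genotype effects on the diets differed by -0.53 ± 0.10 in CD11c+ cells (adjusted p = 0.000261) and by -0.52 ± 0.10 in CD206+ cells (adjusted p = 0.0012). Over the 32 libraries the ratio of Hadhb to Hadha counts lay between 1.34 and 1.83, with a median of 1.52. Of 8 stromal markers, 7 were lower in KO than in WT on HFD in both populations, and 7 were higher on HFD than on SD in both WT populations. Their sums were 71.6 to 122 CPM in KO and 193 to 580.1 CPM in WT CD11c+ cells on HFD, 45.3 to 145 CPM in KO and 50.5 to 162 CPM in WT on SD, and 196 to 274 CPM in KO and 425 to 1874 CPM in WT CD206+ cells on HFD. None was at 0 in all libraries of a group, and their part in the Hadha and Hadhb result was not tested.

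**Figure D5:**
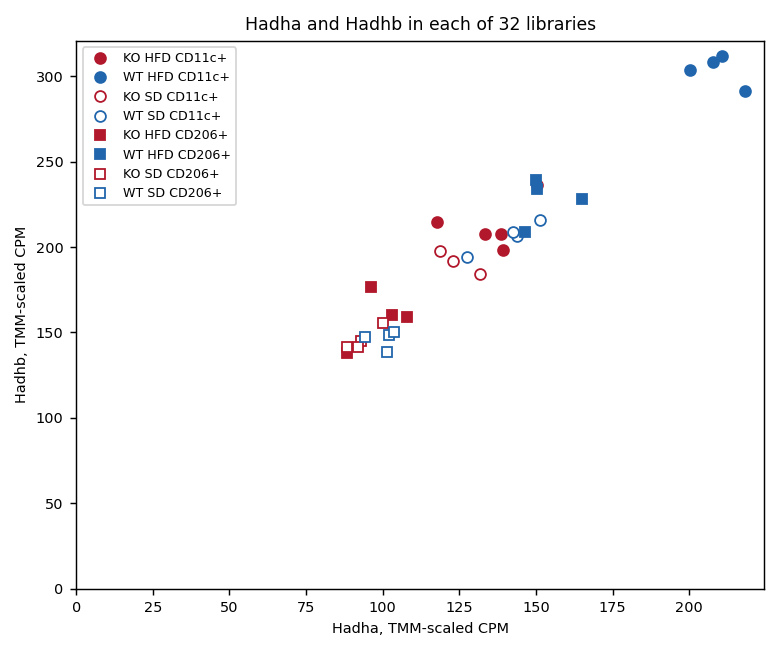
Hadhb against Hadha (CPM) in the 32 libraries; circles CD11c+, squares CD206+, KO in red, WT in blue, HFD filled, SD open. The 4 WT HFD libraries of each population lie at the upper right of their population, and KO HFD, KO SD and WT SD libraries lie together below them.

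The acyl-CoA dehydrogenases did not move as one. Acadm, which takes medium chains and whose loss causes the commonest inherited defect of the pathway in people, lay at 66.7, 70.9, 63 and 62.6 CPM in KO CD11c+ cells on HFD, against 113, 95.3, 98.9 and 92.7 CPM in WT (-0.60 ± 0.08, adjusted p = 2.39e-07). The values in CD206+ cells were 66.6, 63, 70.8 and 58.2 CPM in KO on HFD, against 82, 81.2, 78.7 and 82.4 CPM in WT (-0.33 ± 0.08, adjusted p = 0.00181), and 58, 58, 55.9 and 54.7 CPM in KO on SD, against 76.4, 77.8, 71.8 and 74.5 CPM in WT (-0.41 ± 0.08, adjusted p = 0.000176). In these 3 comparisons every KO library was below every WT library. In CD11c+ cells on SD Acadm averaged 65.1 ± 6.6 CPM in KO, against 73.5 ± 5.49 CPM in WT (adjusted p = 0.0882). The WT diet effect in CD11c+ cells was 0.44 ± 0.08 (adjusted p = 1.59e-05), and the genotype effects on the diets differed there by -0.43 ± 0.11 (adjusted p = 0.00287).

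Acads, the short-chain dehydrogenase, was lower in KO in all 4 comparisons. CD11c+ cells held 41.2, 50.9, 51.3 and 43 CPM in KO on HFD, against 62.5, 64.5, 55.9 and 61 CPM in WT (-0.39 ± 0.11, adjusted p = 0.00778), and 53.5, 46.3, 44.2 and 41.2 CPM in KO on SD, against 64.3, 54.3, 65.2 and 87.6 CPM in WT (-0.55 ± 0.11, adjusted p = 0.000522). CD206+ cells held 38.4, 37.9, 35.3 and 31.4 CPM in KO on HFD, against 43.2, 48.6, 47.9 and 43 CPM in WT (-0.35 ± 0.11, adjusted p = 0.0258), and 35.3, 26.1, 29.8 and 27.3 CPM in KO on SD, against 42.4, 46.9, 41.1 and 44.9 CPM in WT (-0.57 ± 0.12, adjusted p = 0.000508). No KO library overlapped its WT group. The CD206+ call on HFD held in 4 of 8 fits that left out 1 library, being lost without KO replicate 3 or 4 or WT replicate 2 or 3 (largest adjusted p = 0.0894), and the other 3 held in all. Acadvl averaged 88.6 ± 5.04 CPM in KO, against 91.2 ± 5.09 CPM in WT CD11c+ cells on HFD, and 79 ± 7.39 CPM in KO and 84.4 ± 6.15 CPM in WT CD206+ cells on SD. Acadl, the long-chain dehydrogenase, was higher in KO CD11c+ cells on SD, at 134 ± 10.4 CPM against 113 ± 10.01 CPM in WT (0.25 ± 0.07, adjusted p = 0.0117). That adjusted p was 0.0901 without replicate 3 of KO CD11c+ on SD.

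The later enzymes of the mitochondrial spiral differed by population and diet. Hadh, the hydroxyacyl-CoA dehydrogenase of shorter chains, lay at 39.7, 40.8, 37.3 and 35.5 CPM in KO CD206+ cells on SD, against 46.5, 50.2, 48.7 and 55.7 CPM in WT (-0.39 ± 0.08, adjusted p = 0.000819). WT CD11c+ cells had more Hadh on HFD, 54 ± 2.98 CPM, than on SD, 37.5 ± 4.51 CPM (0.53 ± 0.08, adjusted p = 5.52e-06), and the diet effects of the WT populations differed by 0.60 ± 0.12 (adjusted p = 0.000256). Acaa2, the mitochondrial thiolase, lay at 99, 54.7, 76.5 and 84.6 CPM in KO CD206+ cells on SD, against 106, 131, 113 and 129 CPM in WT, with no overlap (-0.60 ± 0.12, adjusted p = 0.000516). Eci2, an isomerase for unsaturated chains, was higher in KO CD11c+ cells on HFD, at 36.7, 37.5, 36.3 and 32.6 CPM against 25.8, 27, 27.9 and 27.4 CPM in WT (0.40 ± 0.10, adjusted p = 0.00163). All KO libraries were above the WT libraries. Summed over the 14 genes, beta-oxidation held 1073 ± 38.8 CPM in KO and 1255 ± 11.3 CPM in WT CD11c+ cells on HFD, and 868 ± 25.4 CPM in KO and 1026 ± 24.9 CPM in WT CD206+ cells on HFD. On SD the sums were 1016 ± 95.2 CPM in KO and 1058 ± 43.7 CPM in WT CD11c+ cells, and 768 ± 34.3 CPM in KO and 863 ± 28.5 CPM in WT CD206+ cells. Most of the HFD gap in the sums lay in Hadha and Hadhb. Both together held 339 ± 5.81 CPM in KO, against 513 ± 8.18 CPM in WT CD11c+ cells on HFD, and the 12 other genes 734 ± 38.8 CPM in KO, against 741 ± 10.9 CPM in WT. In CD206+ cells on HFD Hadha and Hadhb held 257 ± 21.1 CPM in KO cells against 380.4 ± 17.1 CPM in WT cells, and the 12 others 611 ± 23.3 CPM in KO, against 646 ± 14.6 CPM in WT. The median log2 fold change of the 14 genes in CD11c+ cells on HFD was -0.04, with 6 genes above 0 and 8 below.

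Electron transfer differed through Etfb, the beta subunit of the electron transfer flavoprotein that collects electrons from the acyl-CoA dehydrogenases. In CD11c+ cells it lay at 129, 155, 158 and 129 CPM in KO on HFD, against 112, 122, 118 and 100.3 CPM in WT (0.34 ± 0.09, adjusted p = 0.00564), and at 136, 129.7, 117 and 102 CPM in KO on SD, against 164, 170.4, 153 and 168 CPM in WT (-0.44 ± 0.09, adjusted p = 0.000847). KO was thus above WT on HFD and below it on SD, without overlap on either diet. The genotype effects on the diets differed by 0.77 ± 0.13 (adjusted p = 5.23e-05). In WT CD11c+ cells Etfb was lower on HFD than on SD (-0.54 ± 0.10, adjusted p = 2.54e-05), and this diet effect differed from that in WT CD206+ cells by -0.59 ± 0.13 (adjusted p = 0.0011). In CD206+ cells on SD it lay at 90.3, 72, 72.1 and 75.7 CPM in KO, against 96.6, 115, 87.9 and 94.9 CPM in WT, and the libraries overlapped. That call (-0.35 ± 0.10, adjusted p = 0.00782) held in 5 of 8 fits leaving out 1 library, being lost without KO replicate 2 or 3 or WT replicate 2 (largest adjusted p = 0.0943). Etfb averaged 106 ± 2.74 CPM in KO, against 103 ± 6.33 CPM in WT CD206+ cells on HFD (adjusted p = 0.798). Etfa, the alpha subunit, was past the threshold in no genotype comparison and was lower on HFD than on SD in WT CD11c+ cells (-0.36 ± 0.10, adjusted p = 0.00304). Etfdh, which passes the electrons to ubiquinone, averaged 43.8 CPM in KO, against 41.4 CPM in WT CD11c+ cells on HFD, and 39.8 CPM in KO and 45.7 CPM in WT CD206+ cells on SD.

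The peroxisomal transporters and enzymes also moved both ways. Abcd2, a transporter of very long-chain acyl-CoA into peroxisomes, was lower in KO in all 4 comparisons. CD206+ cells on SD held 51.8, 39.5, 29.2 and 38.1 CPM in KO, against 91.8, 95.5, 72.5 and 67.6 CPM in WT (-1.05 ± 0.16, adjusted p = 8.7e-06), and on HFD 34.8, 39.4, 36.1 and 44.8 CPM in KO, against 60.9, 56.4, 61.9 and 66.3 CPM in WT (-0.66 ± 0.16, adjusted p = 0.00207). CD11c+ cells on HFD held 43.3, 45.7, 52.1 and 46.6 CPM in KO, against 82.8, 68.9, 63.8 and 70.1 CPM in WT (-0.60 ± 0.16, adjusted p = 0.00253). In these 3 comparisons the groups did not overlap. In CD11c+ cells on SD they overlapped, at 59.6, 33.6, 44.4 and 32.9 CPM in KO, against 57.5, 63.7, 51.3 and 58.8 CPM in WT, and that call (adjusted p = 0.0343) held in 3 of 8 fits leaving out 1 library (largest adjusted p = 0.121).

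Abcd3, the transporter of branched and bile acid precursors, was highest in CD11c+ cells of WT mice on HFD. It lay at 37.6, 39.9, 43.4 and 42 CPM in KO CD11c+ cells on HFD, against 62.1, 58.3, 55.1 and 70.6 CPM in WT (-0.59 ± 0.10, adjusted p = 9.68e-06). On SD it lay at 41.4, 39.1, 32.1 and 48.6 CPM in KO, against 33.9, 31.3, 31.3 and 31.5 CPM in WT (0.33 ± 0.10, adjusted p = 0.00985). KO was below WT on HFD without overlap, while the SD groups overlapped, and without replicate 4 of KO CD11c+ on SD that adjusted p was 0.126. The genotype effects on the diets differed by -0.93 ± 0.13 (adjusted p = 4.47e-06), and the WT diet effect was 0.94 ± 0.10 (adjusted p = 2.22e-09). In CD206+ cells on HFD Abcd3 lay at 33.8, 35.8, 34.6 and 34.5 CPM in KO, against 41.9, 41.2, 46.6 and 51.3 CPM in WT (-0.39 ± 0.10, adjusted p = 0.00329), again without overlap. The WT diet effect there was 0.35 ± 0.10 (adjusted p = 0.00582).

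Acaa1a, the peroxisomal thiolase, was higher in KO CD11c+ cells on both diets. It lay at 145, 148, 121 and 131 CPM in KO on HFD, against 81.8, 80.9, 87.8 and 77.3 CPM in WT (0.73 ± 0.09, adjusted p = 2.47e-07), and at 147, 122, 156 and 129.95 CPM in KO on SD, against 97.2, 88.3, 94.1 and 128 CPM in WT (0.44 ± 0.09, adjusted p = 0.000515). The HFD groups did not overlap and the SD groups did. In CD206+ cells on HFD Acaa1a averaged 80.1 ± 5.63 CPM in KO, against 68.8 ± 2.97 CPM in WT (adjusted p = 0.0921), and the HFD genotype effects of the populations differed by 0.51 ± 0.13 (adjusted p = 0.0225). Its near copy Acaa1b had group means of 0.051 to 0.531 CPM. Acot8, a thioesterase that ends peroxisomal oxidation, was higher in KO on HFD, at 21.2, 25, 21.6 and 18.5 CPM against 15.2, 13.5, 14.9 and 13.5 CPM in WT CD11c+ cells (0.60 ± 0.13, adjusted p = 0.00057) and 15.2, 14.5, 15.1 and 16.1 CPM against 10.6, 10.1, 13.5 and 10.3 CPM in WT CD206+ cells (0.45 ± 0.13, adjusted p = 0.0132). The KO libraries were above the WT libraries in both populations.

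Acox3, an oxidase of branched chains and so the first step of their peroxisomal oxidation, was lower in KO on HFD, at 86.9 ± 7.21 CPM against 109.7 ± 9.94 CPM in WT CD11c+ cells (adjusted p = 0.0224) and 65.3 ± 5.13 CPM against 85.6 ± 2.56 CPM in WT CD206+ cells (adjusted p = 0.0151). The first call held in 5 of 8 fits leaving out 1 library, being lost without KO replicate 3 or WT replicate 2 or 4 (largest adjusted p = 0.115), and the second was lost without replicate 3 of KO CD206+ on HFD (adjusted p = 0.0604). Phyh, the hydroxylase that starts the breakdown of phytanic acid, lay at 52.6, 45.1, 50.9 and 38.9 CPM in KO CD11c+ cells on SD, against 35.4, 32, 24.4 and 32.4 CPM in WT, without overlap (0.59 ± 0.10, adjusted p = 1.83e-05). Pecr, a trans-enoyl-CoA reductase, was a low gene with 3.89, 4.1, 4.18 and 3.72 CPM in KO CD11c+ cells on HFD, against 8.64, 7.47, 7.97 and 5.65 CPM in WT (-0.90 ± 0.17, adjusted p = 9.36e-05). WT CD11c+ cells on SD held 4.05, 3.14, 4.22 and 3.71 CPM of it, below all WT HFD libraries (0.97 ± 0.17, adjusted p = 2.23e-05). Ehhadh, the bifunctional enzyme that PPARalpha induces in liver, was also low, with 3.32 ± 1.38 CPM in KO and 5.43 ± 1.53 CPM in WT CD11c+ cells on SD (adjusted p = 0.0546). Its other genotype comparisons were not past the threshold either. Summed over 14 genes, the peroxisomal step held 845 ± 27.4 CPM in KO and 889.6 ± 21.1 CPM in WT CD11c+ cells on HFD, and 755 ± 26.9 CPM in KO and 819 ± 24.9 CPM in WT CD206+ cells on HFD.

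Between the populations, 9 genes were past the threshold and higher in CD11c+ than in CD206+ cells in all 4 combinations of genotype and diet, namely Acsl5, Crat, Acadl, Acads, Hadha, Hadhb, Echs1, Etfa and Acox3. In single combinations 11.7% (WT on HFD) to 30.2% (WT on SD) of all genes were higher. How many of all genes were higher in all 4 was not counted, so the 9 say nothing particular about the module. Crat differed most in WT cells on SD, by 1.14 ± 0.10 (adjusted p = 1.62e-10), and by 0.41 ± 0.10 in WT cells on HFD (adjusted p = 0.00452). Echs1, the mitochondrial short-chain enoyl-CoA hydratase, averaged 82.5 ± 5.28 CPM in CD11c+ cells against 52 ± 2.69 CPM in CD206+ cells of KO mice on HFD (0.67 ± 0.10, adjusted p = 7.82e-06), and 74.3 ± 8.36 CPM in CD11c+ cells against 49.4 ± 6.51 CPM in CD206+ cells of WT mice on SD (0.59 ± 0.10, adjusted p = 1.7e-05). Hadha differed by 0.42 ± 0.08 in KO cells on HFD (adjusted p = 7.4e-05) and by 0.45 ± 0.08 in WT cells on HFD (adjusted p = 9.03e-05). In the comparisons just given for Crat, Echs1 and Hadha, every CD11c+ library lay above every CD206+ library. In WT cells on HFD the calls of Acox3, Etfa and Acadl each held in 3 or 4 of 8 fits leaving out 1 library, with a largest adjusted p of 0.122 among them. Markers of other immune cells also moved with the population. The 6 dendritic cell markers summed to 67.5 to 218 CPM in CD11c+ cells against 24.4 to 41.2 CPM in CD206+ cells of KO mice on HFD, and to 87.6 to 220.3 CPM in CD11c+ libraries against 20.02 to 41.5 CPM in CD206+ libraries on SD. In WT mice they summed to 25.7 to 91.9 CPM in CD11c+ cells against 22.5 to 32.3 CPM in CD206+ cells on HFD, and to 263 to 533 CPM in CD11c+ libraries against 246 to 306 CPM in CD206+ libraries on SD. Of the 6, 5 were higher in CD11c+ cells in KO on either diet, 4 in WT on either diet and none lower. The 5 T cell markers summed in KO mice to 39.6 to 88.4 CPM in CD11c+ cells against 16 to 77.4 CPM in CD206+ cells on HFD, and to 57.2 to 72.6 CPM in CD11c+ libraries against 12.5 to 43.4 CPM in CD206+ libraries on SD. In WT mice these sums were 8.98 to 15.3 CPM in CD11c+ libraries against 4.94 to 9.82 CPM in CD206+ libraries on HFD, and 143 to 214 CPM in CD11c+ libraries against 17.7 to 26.2 CPM in CD206+ libraries on SD. In each combination 1 of the 5 was higher in CD11c+ cells and none lower. The part of these cells in the population differences was not tested.

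A second set of genes was higher in CD11c+ cells in 3 of the 4 combinations, WT on HFD being the exception. Slc25a20 averaged 81.5 ± 4.18 CPM in CD11c+ cells against 42.2 ± 5.72 CPM in CD206+ cells of WT mice on SD (0.95 ± 0.14, adjusted p = 6.2e-07), and 57.2 ± 3.59 CPM in CD11c+ cells against 45 ± 2.64 CPM in CD206+ cells on HFD (0.35 ± 0.13, adjusted p = 0.0658). With the replicate number as a block the HFD difference of Slc25a20 passed (adjusted p = 0.0108), as did those of Acaa1a (adjusted p = 0.0285) and Acot8 (adjusted p = 0.0128). Acaa1a differed by 0.77 ± 0.09 in KO cells on HFD (adjusted p = 1.57e-07) and by 0.71 ± 0.09 in WT cells on SD (adjusted p = 1.41e-07). Acaa2 differed by 0.81 ± 0.12 in KO cells on SD (adjusted p = 4.24e-06), and Etfb by 0.73 ± 0.10 in WT cells on SD (adjusted p = 1.35e-07). The block, which the replicate numbers justify in these combinations, also brought past the threshold on SD Acsl1 (0.17, adjusted p = 0.037) and Decr2, a peroxisomal dienoyl-CoA reductase (-0.22, adjusted p = 0.0222), in KO cells, and in WT cells Cpt1a (0.27, adjusted p = 0.0117) and Ehhadh, whose values follow.

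Genes lower in CD11c+ cells were found mostly in WT mice on SD. There 13 of the 40 (32.5%) were past the threshold in that direction, against 33.5% of all genes. By step the share was 50% in the peroxisome (7 of 14 genes), 28.6% in beta-oxidation and 25% in activation. It was 20% in the shuttle and 0% in electron transfer. In the other combinations 0% to 21.4% of the peroxisomal genes were lower. Of the 7, Acaa1b had few counts, and its call held in 5 of 8 fits leaving out 1 library. Pecr averaged 3.78 ± 0.479 CPM in CD11c+ cells against 6.42 ± 1.13 CPM in CD206+ cells of WT mice on SD (-0.76 ± 0.17, adjusted p = 0.000322), and Abcd2 57.8 ± 5.1 CPM in CD11c+ cells against 81.8 ± 13.8 CPM in CD206+ cells (-0.50 ± 0.15, adjusted p = 0.006). Hadh averaged 37.5 ± 4.51 CPM in CD11c+ cells against 50.3 ± 3.93 CPM in CD206+ cells of the same mice (-0.42 ± 0.08, adjusted p = 7.6e-05), and Acsl1 39.2 ± 1.14 CPM in CD11c+ cells against 56.9 ± 5.64 CPM in CD206+ cells (-0.54 ± 0.19, adjusted p = 0.0173). Without replicate 1 of WT CD206+ on SD the Acsl1 adjusted p was 0.064. Ehhadh averaged 3.32 ± 1.38 CPM in CD11c+ cells against 6.44 ± 1.98 CPM in CD206+ cells of KO mice on SD (-0.95 ± 0.27, adjusted p = 0.00434). In WT cells Ehhadh gave -0.56 ± 0.27 on HFD (adjusted p = 0.14) and -0.58 ± 0.26 on SD (adjusted p = 0.0548), with adjusted p of 0.0302 and 0.00532 where the replicate number was a block. The adipocyte-defining markers also differed between these libraries. They summed to 27.4 to 45.2 CPM in CD11c+ cells against 139 to 239 CPM in CD206+ cells of KO mice on SD, to 21.8 to 36.8 CPM in CD11c+ cells against 192 to 248 CPM in CD206+ cells of WT mice on SD, and to 10.5 to 35.2 CPM in CD11c+ cells against 19.4 to 53.3 CPM in CD206+ cells of WT mice on HFD. None of the 10 was at 0 in all libraries of a group. All 10 were lower in CD11c+ cells in KO on both diets and in WT on SD. The part of adipocyte RNA in these differences was not tested.

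Around the module, 87 other genes of fatty acid use were read from lists of related enzymes, peroxisome assembly factors, ketone body enzymes and regulators, and 79 of them were tested. In KO against WT, 15 were higher and 15 lower in CD11c+ cells on HFD, 9 higher and 16 lower on SD, 6 higher and 11 lower in CD206+ cells on HFD, and 10 higher and 18 lower on SD. In all, 38%, 31.6%, 21.5% and 35.4% of the 79 passed, against 38%, 26.8%, 21.8% and 24.5% of all genes. Pparg, the lipid-activated nuclear receptor of fat and macrophages, averaged 41.7 ± 10.6 CPM in KO, against 104 ± 5.54 CPM in WT CD11c+ cells on HFD (-1.31 ± 0.20, adjusted p = 3.57e-06), and 24.6 ± 5.83 CPM in KO and 73.5 ± 7.31 CPM in WT CD206+ cells (-1.58 ± 0.20, adjusted p = 4.99e-07). Its WT diet effect was 0.94 ± 0.20 in CD206+ cells (adjusted p = 0.000536) and 0.56 ± 0.19 in CD11c+ cells (adjusted p = 0.0167). Ppargc1b, a coactivator of mitochondrial genes, was higher in KO CD11c+ cells on HFD, at 18.5 ± 5.89 CPM against 9.02 ± 1.82 CPM in WT (1.03 ± 0.19, adjusted p = 5.63e-05). Ppara and Ppargc1a, better known as regulators of the pathway in liver and muscle, had group means of at most 0.153 CPM for Ppara and 0.107 CPM for Ppargc1a.

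Among these other enzymes, Cat, the catalase that removes the hydrogen peroxide made by peroxisomal oxidases, averaged 146 ± 7.57 CPM in KO, against 312 ± 71.3 CPM in WT CD11c+ cells on HFD (-1.10 ± 0.11, adjusted p = 4.09e-09), and 166 ± 12.5 CPM in KO and 241 ± 28.4 CPM in WT CD206+ cells (-0.54 ± 0.11, adjusted p = 0.000438). Slc27a1, a fatty acid transporter with synthetase activity, averaged 121 ± 16.8 CPM in KO, against 327 ± 26.7 CPM in WT CD11c+ cells on HFD (-1.44 ± 0.21, adjusted p = 1.97e-06). Nudt19, a coenzyme A hydrolase described in mouse peroxisomes, was higher in KO there (0.94 ± 0.09, adjusted p = 2.66e-09). Of the 15 peroxins, which build peroxisomes, 3 were higher and 4 lower in KO CD11c+ cells on HFD, where 38% of all genes passed in either direction, and Pex16 was among the higher ones (0.89 ± 0.12, adjusted p = 4.76e-07). Oxct1, which returns ketone bodies to acetyl-CoA, was higher in CD11c+ than in CD206+ cells by 1.84 ± 0.14 in WT mice on SD (adjusted p = 2.8e-12) and by 1.16 ± 0.13 in KO mice on HFD (adjusted p = 6.85e-08). Pdk4, a kinase that turns cells from glucose to fatty acid oxidation, averaged 9.1 ± 7.94 CPM in KO, against 43.5 ± 17.8 CPM in WT CD206+ cells on SD (-2.25 ± 0.51, adjusted p = 0.00155). Comparisons that share a KO or WT group, such as the HFD genotype effect and the WT diet effect, use the same libraries and are not independent of each other.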

How the data were processed

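Gene counts of 32 bulk RNA-seq libraries from sorted mouse adipose tissue macrophages were used as deposited, as whole read counts per gene symbol in 1 table per library. Per the submitters' processing notes reads went through Trimmomatic 0.35, FastQC 0.11.4, SAMtools 0.1.18 and TopHat2 2.1.0, listed without order, on build mm10 (GRCm38). Neither the counting tool nor its annotation and strand setting is named in the labels. Reads assigned to no gene made up 5.16 to 11.1% of a library's entries and ambiguous reads 0.992 to 1.48%, and these 5 entries without a gene were left out. Library totals were 17619638 to 23832924 gene counts, and the spread between libraries bounds the precision of most members.

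Groups were taken from the labels. Counts were fitted in edgeR 4.0.16 (R 4.3.3, limma 3.58.1) with TMM factors, a filter on low counts (minimum count 10) and 1 mean per group, and 12 comparisons and 6 interactions were tested by quasi-likelihood over 13453 genes. The procedure was checked on simulated counts. The step levels are sums of CPM. Promoters come from the RefSeq table of GRCm38.p6, the same build as the labels name. Up to 14 called genes per comparison with at least 5 CPM were named, with 6 fixed genes. The members and lists were chosen with earlier results of these data known. Alternatives were DESeq2 1.42.0, median-of-ratios size factors, no filter, leaving out each library, library totals without TMM factors, a log2(CPM + 1) scale for the steps, and the replicate number as a block. Same-numbered libraries of the populations deviated together in KO on SD (correlations 0.217 to 0.361), WT on HFD (0.326 to 0.615) and WT on SD (0.234 to 0.387), so the numbers pair the populations there. In KO on HFD the correlations were -0.00874, -0.0702, 0.42 and 0.322 for replicates 1 to 4, so not every pair deviated together. Across genotypes or diets the correlations of same-numbered libraries ran from -0.247 to 0.376. Most were no higher than those with another number, but replicate 4 of KO cells deviated together between the diets, in CD206+ (0.376) and in CD11c+ cells (0.208).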

Additional observations from a re-analysis of the deposited data

Results flagged for a closer look

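In 15 of 264 groups of 4 libraries examined, for 33 genes, 1 library stood apart, the ratio of its gap to the nearest library over the group's range being above Dixon's 95% critical value for 4 samples. Chance gives this in about 1 group in 20. WT CD11c+ on SD held 5 of them. Replicate 4 was apart there for Cpt1a (ratio 0.897, 460.2 CPM against 331 in the nearest library) and Acadvl (0.943, 95.3 against 80.5). It was also apart for Etfa (0.855, 117 against 164) and Acox3 (0.941, 164 against 106), and replicate 1 for Abcd3 (0.893, 33.9 against 31.5).

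In CD206+ cells of WT mice, replicate 4 was apart on SD for Acadvl (0.886, 93.6 CPM against 82.3 in the nearest library) and replicate 1 for Acad10 (0.831, 4.69 against 5.18). On HFD replicate 4 was apart for Etfb (0.950, 93.0 against 105) and replicate 3 for Acot8 (0.842, 13.5 against 10.6). In KO CD206+ cells, replicate 3 on HFD was apart for Acsl4 (0.830, 79.3 against 92.5) and Pecr (0.919, 6.64 against 5.46), replicate 2 on SD for Crot (0.898, 43.2 against 52.1) and replicate 1 on SD for Acox3 (0.835, 69.1 against 58.0). In KO CD11c+ cells, replicate 4 on HFD was apart for Echs1 (0.865, 74.6 against 84.1) and replicate 2 on SD for Acad10 (0.845, 1.95 against 3.24).

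The effect of 1 factor differed between the levels of another, in edgeR's interaction test, for 13 and 3 of the 40 genes (genotype by diet, in CD11c+ and in CD206+ cells), 1 and 3 (genotype by population, on HFD and on SD) and 19 (diet by population in WT). The values of those that the naming rule picked follow. The genotype effect on HFD minus that on SD in CD11c+ cells was 0.77 for Etfb, 0.70 for Crat, -0.43 for Acadm, -0.55 for Hadha, -0.53 for Hadhb and -0.93 for Abcd3, in log2 units. In CD206+ cells it was -0.52 for Hadha, -0.52 for Hadhb and -0.32 for Acsl5. The WT diet effect in CD11c+ minus that in CD206+ cells was 0.60 for Hadh, 0.33 for Acadm, 0.59 for Abcd3, 0.89 for Pecr, -0.73 for Crat and -0.59 for Etfb. The genotype effect in CD11c+ minus that in CD206+ cells was 0.51 for Acaa1a on HFD, and on SD 0.63 for Cpt2, 0.40 for Hadh and -0.34 for Acsl5. The calls of Cpt2, Hadh and Acsl5 on SD held in 4, 6 and 13 of 16 fits that left out 1 library. The Acadm call between the WT diet effects held in 8 of 16 (largest adjusted p = 0.122) and was lost without the filter on low counts. The other 15 calls named here held in all 16.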

How the results depend on the processing

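The 141 named log2 fold changes kept their direction under every alternative run. All 141 kept their call with DESeq2 and with the replicate block, 139 with median-of-ratios size factors and 136 without the filter on low counts. In the fits that left out 1 library 1165 calls were kept and 115 lost, and 350 of 384 counts of genes stayed within 1.5 times. The other counts moved, and the cause was not tested. Genes higher on HFD in KO CD206+ cells were 2 with DESeq2 and 0 to 3 with 1 library left out, the 3 arising without replicate 1 of KO CD206+ on SD. In WT CD206+ cells on HFD against SD, 0 were lower without the filter and 0 to 1 with 1 library left out, and 3 to 6 were higher. In WT CD11c+ cells 5 to 9 were lower on HFD.

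Genes lower in CD11c+ than in CD206+ cells numbered 1 without the filter in KO on HFD (1 to 3 with 1 library left out), 2 without the filter in KO on SD (3 to 5), and 1 with the replicate block in WT on HFD. Positive genotype-by-diet differences in CD206+ cells numbered 1 with DESeq2, 1 with the block and 0 to 3 with 1 library left out. Positive genotype-by-population differences numbered 2 on HFD with the block, where those over all genes numbered 641 with it and 290 without. On SD they numbered 5 with the block (920 over all genes with it and 551 without), 0 with size factors, 0 without the filter and 0 to 3 with 1 library left out, where negative ones numbered 0 to 1. Over all genes, the KO diet effect gave 1 call in CD11c+ cells with edgeR but 36 higher and 10 lower with DESeq2, and 0 in CD206+ cells with edgeR but 10 higher and 8 lower with DESeq2.

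Without TMM factors 11 of the 40 step sums moved by more than 1 SD. WT CD206+ on HFD then held 331 CPM for activation, 618 for the shuttle, 1089 for beta-oxidation, 259 for electron transfer and 869 for the peroxisome. WT CD206+ on SD held 313 for activation, 911 for beta-oxidation and 834 for the peroxisome, WT CD11c+ on SD 981 for beta-oxidation and 747 for the peroxisome, and KO CD11c+ on HFD 817 for the peroxisome. On the mean log2 scale 24 of 60 step differences moved.

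The labels do not tie replicate numbers across genotypes or diets, though replicate 4 of KO CD206+ cells deviated together between the diets (correlation 0.376). With them as a block, Acsl1 passed in the WT diet comparison in CD11c+ cells (adjusted p = 0.0142), as did Etfa (0.0427) in KO against WT on HFD and Acadm (0.0446) on SD, and no named call was lost.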
